A study of Mus musculus with 153 samples.

Results

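Interferon response genes, the genes whose transcripts rise when a cell senses interferon, were followed in tail skin of backcross mice. They are 36 genes named as members of this programme. No threshold on a measured value picked them, but earlier results of these data were known when they were listed. Of the 36, 32 were measured on a probe set annotated with that gene alone, among 18810 genes in all. The other 4 had no such probe set. Parp9 and Dtx3l shared probe sets with each other, Igtp shared one with Irgm2, and Ifi44 was not listed in the annotation used here, so none of them is described further. Irf1 had more than 1 such probe set, of which the brightest was taken.

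The mice came from a cross in which Mus spretus males were mated with FVB/N females lacking Hras on both chromosomes. F1 daughters were then backcrossed to FVB/N males that were Hras -/- or Hras -/+. HET mice carried 1 null copy of Hras and WT mice carried none. All were untreated and 8 weeks old when tail skin was frozen, and 1 array was hybridised per mouse. Of 153 arrays, 2 of WT males on plate 2 are marked as outliers in the labels and entered only where stated. The rest came from 37 HET mice, with 9, 10 and 18 on plates 1, 2 and 3, and from WT mice, with 40, 36 and 38 on these plates. They were of 81 males and 70 females. Each mouse is a separate animal with its own mixture of spretus and FVB/N alleles, so mice of 1 genotype are not genetic replicates. Levels of Hras itself are left out here, and the genotype labels were taken as given.

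Values are log2 intensities summarised per probe set by RMA, a method that corrects background, normalizes arrays and combines the probes of a set. Array medians lay between 4.67 and 4.89 and the lower quartiles between 3.02 and 3.20. No read depth exists for arrays, and the number of mice limits the precision. A probe set's level depends on its probes as well as on the transcript, so levels of different genes were not ranked against each other.

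Type I interferons bind a receptor on nearly every cell. The kinases Jak1 and Tyk2 then activate Stat2, which acts with Irf9 at interferon-stimulated response elements in the promoters of the target genes. Interferon gamma acts on another promoter site, the gamma-activated site. The induced proteins sense viral nucleic acids, block translation and viral assembly, or tag and remodel membranes around intracellular microbes. In skin, keratinocytes, fibroblasts, endothelium and resident immune cells can all mount this response, and unstimulated tissue keeps a low baseline of it.

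The promoters of the genes that lead the results below are shown from RefSeq (assembly GRCm38.p6, reference strain), from 250 bases before to 50 bases after the annotated start. Gbp7, Irgm1, Ifit3 and Oasl2 are shown because they took part in the 3 closest pairs across mice. Their remaining partner, Dhx58, had no window in the table used. Bst2 is shown as the gene whose mice fell in separate clusters, and Ddx58 as a sensor whose closest followers included many genes of its own chromosome. The windows are chr3:142530086-142530385 on the plus strand for Gbp7, chr11:48871371-48871670 on the minus strand for Irgm1, chr19:34583279-34583578 on the plus strand for Ifit3, chr8:71537423-71537722 on the minus strand for Bst2, chr4:40239776-40240075 on the minus strand for Ddx58 and chr5:114896684-114896983 on the plus strand for Oasl2. Each is written from 5′ to 3′ along the gene, and capitals mark matches to the response element core on either strand, which is GAAA, any 2 bases, and GAAA.
Gbp7: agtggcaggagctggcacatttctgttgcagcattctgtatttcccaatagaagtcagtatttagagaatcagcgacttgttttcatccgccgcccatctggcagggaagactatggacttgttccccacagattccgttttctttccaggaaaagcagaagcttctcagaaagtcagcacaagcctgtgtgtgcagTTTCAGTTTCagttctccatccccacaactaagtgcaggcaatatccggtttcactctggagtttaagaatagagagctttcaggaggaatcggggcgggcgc
Irgm1: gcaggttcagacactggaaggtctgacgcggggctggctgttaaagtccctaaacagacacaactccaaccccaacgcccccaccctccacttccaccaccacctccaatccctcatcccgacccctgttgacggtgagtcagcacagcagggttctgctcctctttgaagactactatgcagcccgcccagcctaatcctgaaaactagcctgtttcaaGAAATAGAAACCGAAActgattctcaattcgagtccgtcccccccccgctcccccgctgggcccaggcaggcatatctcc
Ifit3: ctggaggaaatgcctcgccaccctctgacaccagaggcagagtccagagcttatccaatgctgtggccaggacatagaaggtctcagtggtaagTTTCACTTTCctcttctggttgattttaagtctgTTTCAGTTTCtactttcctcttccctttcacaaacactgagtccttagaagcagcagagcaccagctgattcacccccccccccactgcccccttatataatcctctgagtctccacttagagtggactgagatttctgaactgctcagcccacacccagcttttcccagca
Bst2: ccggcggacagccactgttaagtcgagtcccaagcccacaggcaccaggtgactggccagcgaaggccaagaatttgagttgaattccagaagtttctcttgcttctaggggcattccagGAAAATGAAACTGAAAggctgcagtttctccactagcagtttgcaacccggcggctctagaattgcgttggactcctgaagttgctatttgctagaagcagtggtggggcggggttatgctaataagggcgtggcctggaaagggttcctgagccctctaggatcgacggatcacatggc
Ddx58: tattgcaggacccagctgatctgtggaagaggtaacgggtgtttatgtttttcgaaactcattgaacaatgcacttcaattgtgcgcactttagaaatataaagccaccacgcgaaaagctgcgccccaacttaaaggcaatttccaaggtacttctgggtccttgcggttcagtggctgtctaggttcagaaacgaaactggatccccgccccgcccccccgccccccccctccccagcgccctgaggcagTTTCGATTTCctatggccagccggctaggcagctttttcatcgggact
Oasl2: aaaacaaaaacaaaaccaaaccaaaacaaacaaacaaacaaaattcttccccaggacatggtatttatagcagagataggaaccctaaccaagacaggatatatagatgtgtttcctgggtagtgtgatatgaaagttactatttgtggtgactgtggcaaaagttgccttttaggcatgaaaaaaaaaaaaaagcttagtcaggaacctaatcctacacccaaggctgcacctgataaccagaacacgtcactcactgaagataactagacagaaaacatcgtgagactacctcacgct

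In these windows Irgm1 and Bst2 each held 2 overlapping matches on the printed strand. Ifit3 held 2 separate ones on the opposite strand, Gbp7 and Ddx58 held 1 each, also on the opposite strand, and Oasl2 held none. Counted from the start, the first match began at -30 in Irgm1, -53 in Gbp7, -130 in Bst2 and -156 in Ifit3, while that of Ddx58 began just after the start. Of the 25 measured genes with a RefSeq window, 13 (52%) held at least 1 match in at least 1 of their windows, against 1079 of 27025 genes (3.99%). The gamma-activated site TTCNNNGAA, which reads the same on both strands, was present in 6 of the 25 (24%), against 9.55% of all genes. Overlapping matches of 1 motif were each counted, and the 2 motifs were searched separately. A match is a string of letters and not a measured binding site.

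The signals of their probe sets are given as a description of the arrays, not of the amounts of transcript. Of the 32 probe sets, 27 had a mean below that of the median gene (5.45), and 5 lay below the lower quartile of gene means (3.43). Those 5 were probe sets of Ifit1, Oas3, Mx2, Rsad2 and Cmpk2. The 5 above the median gene were those of Irf9, Stat2, Ddx58, Trim25 and Ifi35. The values by genotype show these levels with 1 point per mouse.

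**Figure D1:**
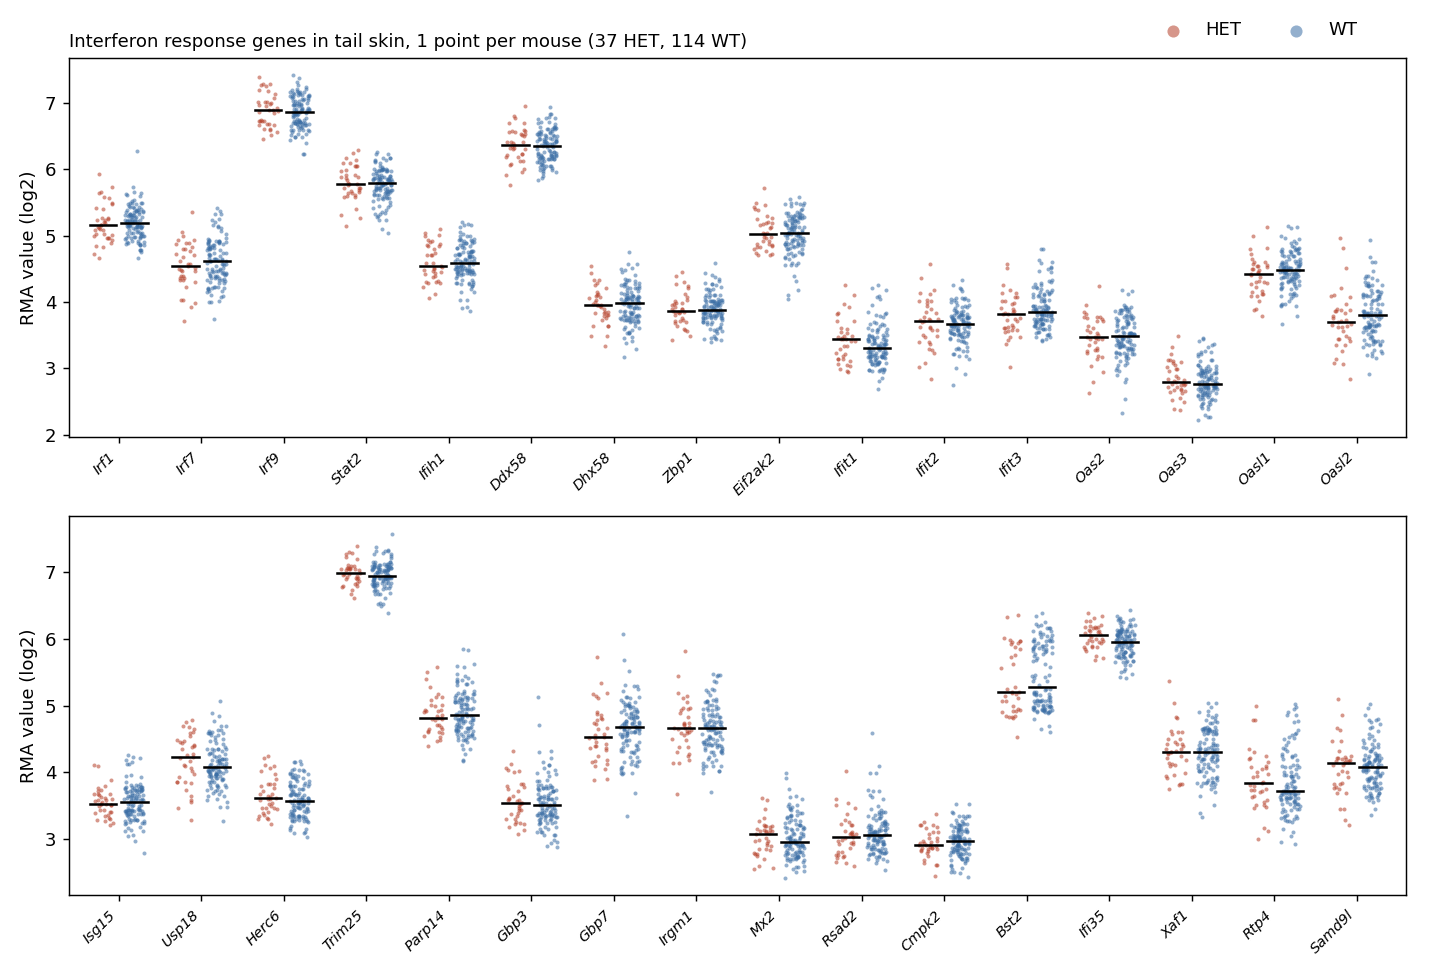
Log2 RMA value (vertical axis) of each of the 32 interferon response genes, with 1 point per mouse, HET (37 mice) left of WT (40, 36 and 38 mice on plates 1, 2 and 3), and a black line at the median of each genotype. The HET and WT points overlap for every gene, and the points of Bst2 form a lower and an upper cluster in both genotypes.

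The first comparison asked whether losing 1 copy of Hras, a small GTPase of growth factor signalling, goes with a different level of these genes. None of the 32 passed an adjusted p of 0.05 in the limma fit with sex and plate in the model, against 21 of 18810 genes (0.112%). Differences, HET minus WT, ran from -0.10 to 0.10, with 17 above zero and 15 below and a median of 0.00. The 95% confidence intervals of all 32 lay between -0.26 (Bst2) and 0.21 (Rtp4), so a change beyond 1.2-fold in either direction was outside every interval. At an unadjusted p under 0.05 there was 1 gene (3.12%), against 6.57% of all genes. It was higher in HET mice, as were 3.25% of all genes.

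That gene was Ifi35, an interferon-induced leucine zipper protein. Its value ran from 5.69 through a median of 6.06 to 6.39 in HET mice, against 5.42, 5.96 and 6.43 in WT mice. The HET range lay wholly inside the WT range. The difference was 0.10 ± 0.04 (SE), with an adjusted p of 0.611 in limma. It was 0.01 on plate 1, 0.03 on plate 2 and 0.20 on plate 3, and thus widest on plate 3.

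Among the transcription factors, Irf7, which drives the induction of the alpha interferons and lies on chromosome 7 with Hras, ran from 3.71 through a median of 4.54 to 5.35 in HET mice. In WT mice it ran from 3.75 through 4.62 to 5.41. The groups overlapped almost wholly, with a difference of -0.06 ± 0.07 and a limma adjusted p of 0.929. In the cross described, the intact Hras copy of the F1 mothers came from spretus. The copies of Hras and the alleles carried along with it on chromosome 7 can therefore not be told apart here. Irf9, which acts with Stat2 at the response element, had medians of 6.88 in HET and 6.86 in WT mice. Stat2 had medians of 5.78 in both, and Irf1, which answers mainly to interferon gamma, had 5.16 in HET and 5.19 in WT mice. Of these 4 genes, none had an interval reaching beyond 0.19 from zero.

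The nucleic acid sensors had medians that differed little between genotypes. Ddx58 (RIG-I), the sensor of short uncapped RNA, had a median of 6.36 in HET and 6.35 in WT mice. Ifih1, which senses long double-stranded RNA, had 4.54 in HET and 4.59 in WT mice. Dhx58, a helicase that modulates those sensors, had 3.95 in HET and 3.98 in WT mice. Zbp1, which binds Z-form nucleic acids, had 3.87 in HET and 3.88 in WT mice. Eif2ak2 (PKR), a kinase that halts translation on meeting double-stranded RNA, had 5.03 in HET and 5.04 in WT mice.

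The effectors gave the wider differences, none of them called. Ifit3, of a family that binds foreign RNA, ran from 3.03 through a median of 3.82 to 4.57 in HET mice and from 3.41 through 3.85 to 4.80 in WT mice. Its difference of -0.10 ± 0.06 (limma adjusted p = 0.816) was -0.01 on plate 1, 0.08 on plate 2 and -0.27 on plate 3. Its sign thus differed between plates. Oasl2, a 2'-5' oligoadenylate synthetase-like gene, ran from 2.84 through 3.70 to 4.96 in HET mice and from 2.91 through 3.80 to 4.93 in WT mice, a difference of -0.09 ± 0.07 (limma adjusted p = 0.897). Oasl1, which in mice represses Irf7 translation, differed by -0.08 ± 0.05 (adjusted p = 0.852 in limma). Ifit1 differed by 0.08 ± 0.06 (adjusted p = 0.903 in limma). HET and WT ranges overlapped for each of these genes.

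A genotype by plate term was called in none of the 32 and in no gene at all (0%) by the limma F test. At an unadjusted p under 0.05 it gave 3 of 32 (Ifit2, Ifit3 and Irgm1, 9.38%), close to the 9.07% of all genes, and the smallest adjusted p among the 32 was 0.44. A genotype by sex term was likewise called in 0 of 32 and in 0% of all genes. It gave 0 of 32 at an unadjusted p under 0.05, against 4.76% of all genes, and the intervals reached from -0.41 (Oasl2) to 0.56 (Rtp4).

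The same contrast was read for genes upstream and downstream in the pathway. They were 13 measured interferon genes (of 19 written), 6 receptor chains (of 6), 8 signal transducers (of 9) and 14 nucleic acid sensing genes (of 18). Also read were 9 genes listed as brakes, such as Socs1 (of 9), and 60 further interferon-stimulated genes (of 75). The last list held 10 genes of MHC class I presentation (of 11). Isg20, an antiviral effector and not itself a brake, stood in the lists of brakes and of further interferon-stimulated genes and was counted in both. Irf8 likewise stood in the lists of transducers and of plasmacytoid dendritic cell markers. None of all these genes was called in HET against WT mice. The median difference of the 60 further interferon-stimulated genes was -0.01, with 24 above zero. None of the cell type markers examined was called either. All 10 macrophage and dendritic cell markers had differences below zero (median -0.14), their mean level running from 5.16 through a median of 6.09 to 6.88 in HET mice and from 5.52 through 6.29 to 7.25 in WT mice. All 6 mast cell markers (median -0.08) and 4 of 5 leukocyte markers (median -0.08) also lay below zero, while 5 of 6 skeletal muscle markers lay above it (median 0.15). Of the other lists, 7 of 10 keratinocyte, 2 of 7 fibroblast, 2 of 7 endothelial and 1 of 5 adipocyte markers lay above zero. So did 3 of 7 T lymphocyte, 2 of 5 Langerhans cell and 2 of 6 plasmacytoid dendritic cell markers. The NK and B cell list had 3 of 7 and the neutrophil list 2 of 5, against 49.9% of all genes. The part of these markers in the values above was not tested.

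**Figure D2:**
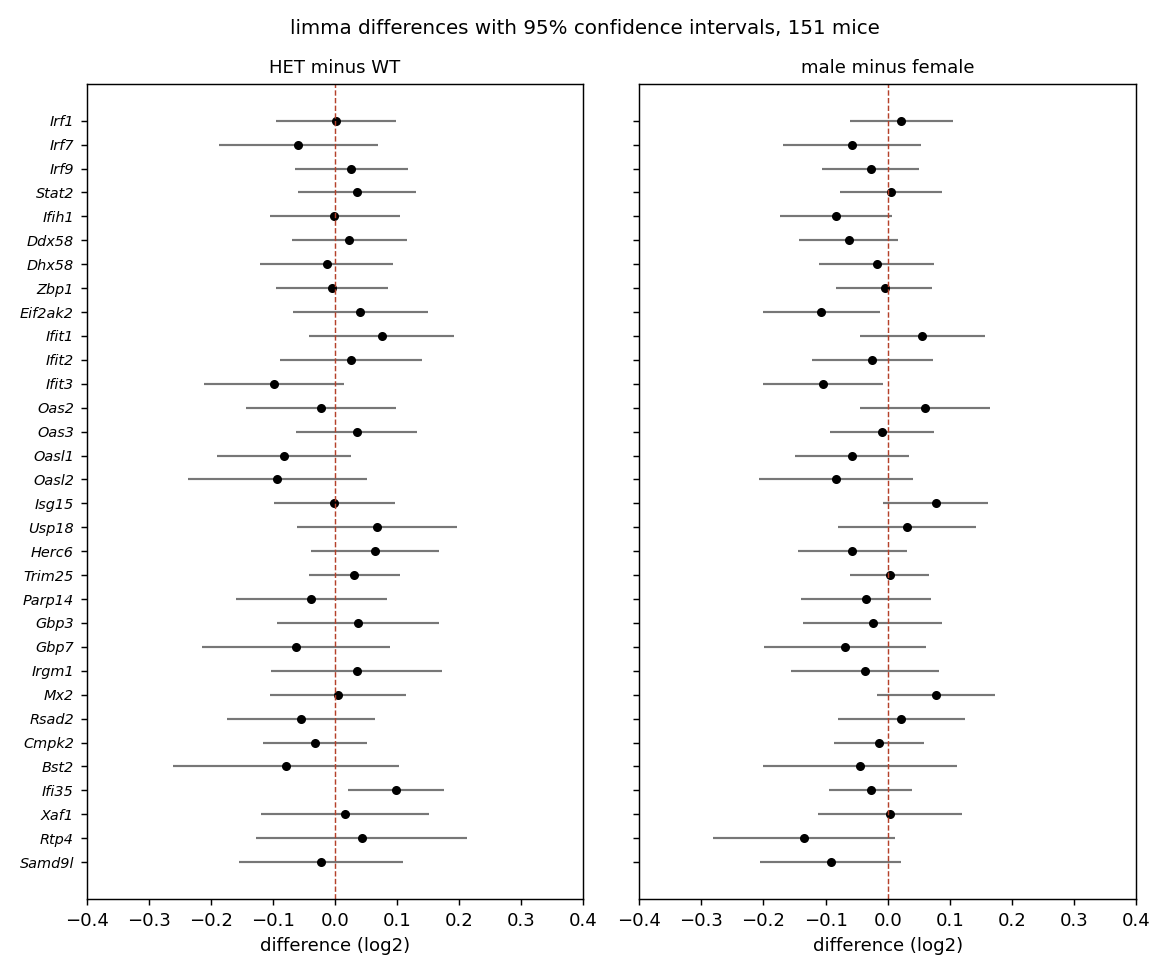
Difference in log2 RMA value (horizontal axes) for each of the 32 genes, HET minus WT on the left and male minus female on the right, from limma with 95% confidence intervals over all mice used. The differences between genotypes lie between -0.10 and 0.10, and those between sexes between -0.14 and 0.08.

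Males and females were compared in the same fit. None of the 32 genes was called, against 680 of 18810 genes (3.62%), although 22 of the 32 had a difference below zero (median difference -0.03, against -0.01 over all genes, of which 44.9% lay above zero). At an unadjusted p under 0.05 there were 2 genes (6.25%), both lower in males, against 16.4% of all genes, or 10.7% when those lower in males alone are counted. Eif2ak2 ran from 4.04 through a median of 5.01 to 5.50 in males and from 4.40 through 5.12 to 5.71 in females, a difference of -0.11 ± 0.05 (limma adjusted p = 0.222). Ifit3 ran from 3.41 through 3.82 to 4.80 in males and from 3.03 through 3.90 to 4.64 in females, a difference of -0.10 ± 0.05 (limma adjusted p = 0.261). Males and females overlapped over most of their range in both genes. The largest difference, -0.14 ± 0.07, was that of Rtp4, a chaperone-like interferon-induced protein (adjusted p = 0.36 in limma). All 32 intervals lay between -0.28 (Rtp4) and 0.17 (Mx2).

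Among the other genes of the pathway, 6 of 119 measured (5.04%) were called between the sexes in limma, a share near the 3.62% of all genes. The transcripts of Tap2, a subunit of the peptide transporter for MHC class I, fell by 0.14 in males (adjusted p = 0.00254), and those of B2m, the light chain of MHC class I, fell by 0.13 (adjusted p = 0.0129). Socs1, which shuts off Jak kinases, fell by 0.11 in males (adjusted p = 0.0169), and Jak1 itself fell by 0.08 (adjusted p = 0.00968). Znfx1, an interferon-stimulated helicase, was higher in males by 0.14 (adjusted p = 0.00402), as was Ifna9 by 0.15 (adjusted p = 0.0294). These were 1 of 13 interferon genes, 1 of 8 transducers, 1 of 9 genes listed as brakes and 1 of 60 further interferon-stimulated genes. The others were 2 of 10 genes of MHC class I presentation. None of the 6 receptor genes and 14 sensing genes was called. Cell type markers also differed: in males 3 of 6 mast cell, 2 of 5 adipocyte and 2 of 5 Langerhans cell markers fell, as did Lum and Il7r, and Col1a1, Col1a2, Col3a1, Krt1, Krt14 and S100a8 were higher. Their part in these differences was not tested. In bulk skin, fewer cells of a type and less RNA per cell cannot be told apart.

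Plates were the third labelled factor. In a limma F test over the 3 plates none of the 32 genes was called, against 4 of 18810 genes (0.0213%), and 0 of 32 reached an unadjusted p under 0.05, against 0.808% of all genes. Between plates 2 and 1 alone, 25 of 32 differences were below zero (median -0.06, against 0.00 over all genes). In that contrast Ifit3, Oasl2 and Cmpk2 had unadjusted p-values under 0.05 (9.38% of the 32, against 2.05% of all genes), all 3 lower on plate 2 (1.15% of all genes), but no gene of the array was called (0%). The median difference was -0.04 between plates 3 and 1 and 0.02 between plates 3 and 2, with none of the 32 called in either (0.0213% of all genes in each).

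The spread that remained was then described. It holds array noise as well as differences between mice, since each mouse had 1 array. After genotype, sex and plate were removed, the SD of the 32 genes ran from 0.19 (Trim25) to 0.49 (Bst2) with a median of 0.30, against a median of 0.22 over all genes and 0.25 over genes with a mean below the median gene. The SD was above that of the median gene for 29 of the 32. The exceptions were Trim25, a ubiquitin ligase that acts on RIG-I, Ifi35, and Cmpk2, a nucleotide kinase beside Rsad2. Among the most variable 10% of all genes were Bst2 (tetherin, which holds budding virions on the membrane), Rtp4, the GTPases Gbp7 and Irgm1, Oasl2, and Xaf1, an interferon-induced partner of an apoptosis inhibitor.

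Rtp4 ran from 3.00 through a median of 3.84 to 4.99 in HET mice and from 2.93 through 3.72 to 5.02 in WT mice. Gbp7, a guanylate-binding protein recruited to intracellular pathogens, ran from 3.88 through 4.53 to 5.73 in HET mice and from 3.35 through 4.67 to 6.07 in WT mice. Irgm1, a regulator of the immunity-related GTPases, ran from 3.68 through 4.67 to 5.82 in HET mice and from 3.71 through 4.66 to 5.48 in WT mice. The HET and WT ranges of these genes overlapped over most of their length.

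Rsad2 (viperin), which makes a chain-terminating antiviral nucleotide, had a median of 3.04 in HET and 3.07 in WT mice, and lay at 3.73 or below in all but 5 mice. Its highest value, 4.59, belonged to a WT male on plate 2, and the next was 4.10. Counted on values with genotype, sex and plate removed, 17 of the 32 genes in that mouse lay above their median and 15 did not. Across all mice the number of the 32 genes above their median, counted in the same way, ran from 5 to 28. At least 24 lay above in 10 mice and at most 8 in 7 mice.

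Correlation across mice was computed on residuals after genotype, sex and plate. Over the 496 pairs of the 32 genes the median Pearson r was 0.081, against 0.003 over all pairs of the 18810 genes. The middle 90% of pairs ran from -0.094 to 0.27, against -0.185 to 0.208 over all gene pairs. Pairs with r above zero made up 78.2%, against 51.2% of all pairs, and pairs with r of at least 0.3 made up 3.63%, against 1.6%. The pairs share genes, mice and arrays and are not independent. At a Benjamini-Hochberg adjusted p under 0.05 (permutation tests with 100000 draws, adjusted over the 496 pairs) 70 pairs (14.1%) were positive and 0 negative. The smallest called r was 0.219, and 4.34% of all gene pairs reached it. Most pairs were thus positive and small in r. The figures include the pairs of Bst2, whose mice fell in clusters described below, and the median was 0.087 without them.

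The closest pair was Gbp7 with Irgm1, GTPases that both act on vacuoles of intracellular microbes, with r = 0.431 and rho = 0.419 over all mice used (permutation p = 1e-05 for both, the smallest that the draws can give, adjusted p = 0.0018 for r and 0.00124 for rho). Within plates 1, 2 and 3, r was 0.526, 0.481 and 0.33, and r was 0.411 after removing the 2 mice with the most extreme Gbp7 values. Dhx58 with Oasl2 followed, with r = 0.385 and rho = 0.42 (permutation adjusted p = 0.0018 and 0.00124). This relation varied between plates, with r of 0.534, 0.131 and 0.369. Ifit3 with Gbp7 had r = 0.358 and rho = 0.301 (permutation adjusted p = 0.0018 and 0.00839), and 0.317, 0.331 and 0.406 on the plates. All 3 pairs joined genes of different chromosomes.

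The next 5 pairs had r between 0.336 and 0.345, each with an adjusted permutation p of 0.0018. They were Usp18 with Parp14 (rho = 0.339), Oasl2 with Rsad2 (rho = 0.293), Ifit1 with Rtp4 (rho = 0.244), Ifit2 with Parp14 (rho = 0.344) and Zbp1 with Isg15 (rho = 0.297). Whether the Isg15 probe set reads Isg15 itself was not tested, as set out below. Usp18 removes the ubiquitin-like Isg15 protein from its targets and curbs the interferon receptor, and Parp14 attaches ADP-ribose to proteins. In each of the 5, r was positive on all plates, from 0.244 to 0.512. With the 2 mice most extreme in the first gene removed, r lay between 0.281 and 0.333.

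At the other end stood Irf1 with Isg15 (r = -0.206, rho = -0.216), Isg15 with Xaf1 (r = -0.2, rho = -0.177), Isg15 with Ifi35 (r = -0.18, rho = -0.165) and Oas2 with Xaf1 (r = -0.174, rho = -0.148). None was called, the smallest adjusted permutation p being 0.069. Of these 4 pairs, 3 involved Isg15. The Isg15 probe set itself stood apart: of the 16 probe sets with neighbouring numbers, 15 carried genes of chromosome 17 and 1 a gene of chromosome 4, where Isg15 lies. For every other gene of the 32, most of the neighbouring probe sets carried genes of its own chromosome. Whether the probe set reads Isg15 itself was not tested, and without it the median r over pairs was 0.087.

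**Figure D3:**
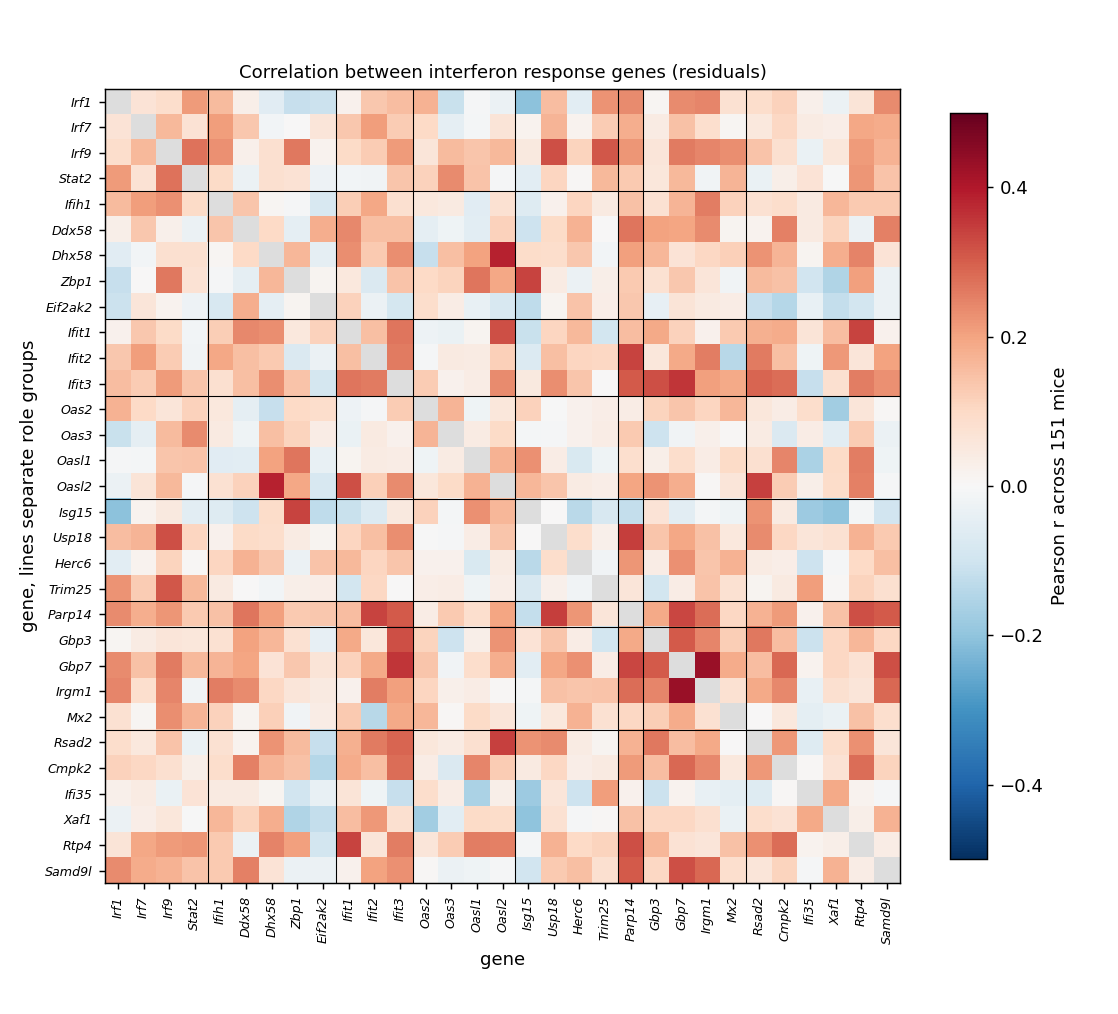
Pearson r across mice (colour, on residuals after genotype, sex and plate) for each pair of the interferon response genes, ordered by role, with lines between role groups. Bst2 is left out because its mice fall in separate clusters, and the strongest square is Gbp7 with Irgm1 at 0.431. The rows of Isg15 and Eif2ak2 are mostly pale or blue, apart from the red square of Isg15 with Zbp1.

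Grouped by role, the Ifit genes had a median r of 0.259 over 3 pairs and the GTPases (Gbp3, Gbp7, Irgm1 and Mx2) had 0.217 over 6 pairs. The transcription factors had 0.126 over 6 pairs, the Oas and Oas-like genes 0.076 over 6 and the other effectors 0.041 over 21. The sensors had 0.012 over 10 pairs. The Isg15 system (Isg15, Usp18, the ligase Herc6 and Trim25) had -0.007 over 6 pairs, and 0.024 over the 3 pairs without the Isg15 probe set. These medians are descriptions and their differences were not tested.

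Some pairs are neighbours on a chromosome, and paralogues among them may share probe sequence, which was not examined. Gbp3 with Gbp7 had r = 0.308 and rho = 0.224 (permutation adjusted p = 0.00298 and 0.0557). Ifit1 with Ifit3 had r = 0.269 and Ifit2 with Ifit3 had 0.259 (adjusted permutation p = 0.014 and 0.0197), while Ifit1 with Ifit2 had 0.15 (adjusted permutation p = 0.224). Rsad2 with Cmpk2 had 0.218, Oasl1 with Oasl2 had 0.172 and Oas2 with Oas3 had 0.169 (adjusted permutation p = 0.0512, 0.145 and 0.157). Leaving out all pairs on 1 chromosome, the median over the other 462 pairs was 0.079.

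Gene by gene, Parp14 had the highest median r with the others (0.183, above zero with 30 of 31), followed by Gbp7 (0.162), Ifit3 (0.153) and Irf9 (0.141). Eif2ak2 (-0.03, above zero with 14 of 31) and Isg15 (-0.019, with 12 of 31) had the lowest. Among genes with a promoter window, pairs that shared the response element did not have a higher median. Where both promoters held a match, the median r was 0.054 over 78 pairs, where only 1 did it was 0.064 over 156 pairs, and where neither did it was 0.08 over 66 pairs. The genes with a match include Eif2ak2 and Isg15, which had the lowest medians, and Bst2, whose mice fell in clusters. These medians were not recomputed without those genes, and their differences were not tested.

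Bst2 was the most variable of the 32 genes, and its mice fell into 2 clusters. It ran from 4.53 through a median of 5.20 to 6.36 in HET mice and from 4.61 through 5.28 to 6.39 in WT mice. No mouse lay between 5.46 and 5.56, a gap of 0.11, with 64 mice above it and 87 below. The upper cluster held 15 HET and 49 WT mice, 32 males and 32 females, and 20, 20 and 24 mice of plates 1, 2 and 3. The lower one held 22 HET and 65 WT mice, 49 males and 38 females, and 29, 26 and 32 mice of the plates. Both genotypes, both sexes and all plates were thus present on each side. This split was seen in the data and was not a labelled group, so the clusters were not tested against each other and no pooled r of Bst2 with a single gene is printed. Bst2 does enter the 496 pairs and the mean of the 32 genes with all mice pooled.

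Of the 20 genes with the largest absolute r to Bst2, which were ranked over all mice and so across both clusters, all 20 lay on chromosome 8, the chromosome of Bst2. That was so for 2.74% of all genes. Mrpl34, a mitochondrial ribosomal protein gene near Bst2, had r = 0.323 with it in the upper cluster and 0.144 in the lower one. Mfap3l, farther along the chromosome, had -0.032 in the upper and 0.237 in the lower cluster. With the other interferon response genes, r within a cluster ran from -0.209 to 0.328. The clusters were cut on the Bst2 values themselves. This narrows the range of Bst2 within each and by itself draws r towards zero. Which alleles the mice carried at this locus, and whether these differ in the bases that the probes read, was not examined here.

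A few further genes of the set also had followers from their own chromosome, an observation made after the values were seen. Among the 20 genes with the largest absolute r, Usp18 had 11 from chromosome 6, led by Ltbr (r = 0.47), and Eif2ak2 had 8 from chromosome 17, led by Slc30a6 (r = 0.518). Ddx58 had 8 from chromosome 4, led by Bspry (r = -0.529) and Atp6v1g1 (r = -0.514), and Trim25 had 7 from chromosome 11. With Bst2 these made 5 of 32 genes (15.6%) with at least 7 such followers, close to the 14% of all genes. The median was 1 for the 32 genes and 2 for all genes. Whether spretus and FVB/N alleles of these genes differ under their probes was not examined either.

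**Figure D4:**
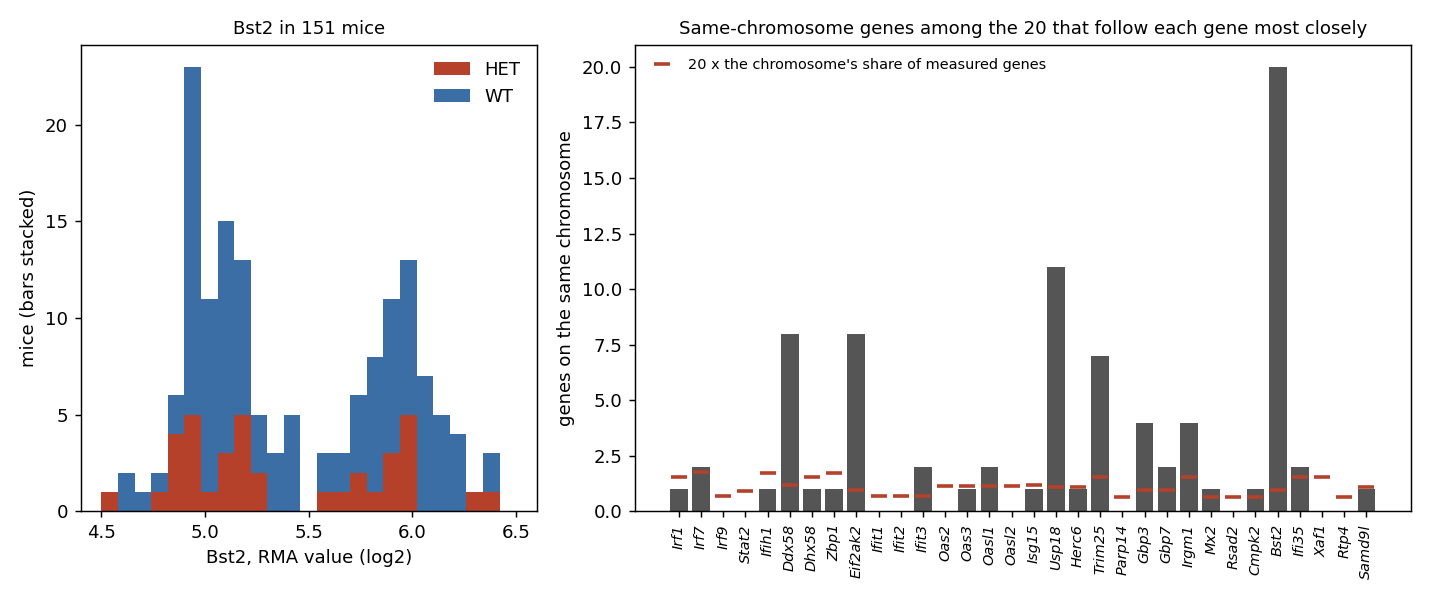
Left, number of mice (vertical axis, stacked bars) by Bst2 log2 RMA value, with no mouse between 5.46 and 5.56. Right, for each of the 32 genes, how many of its 20 closest followers by absolute r lie on its own chromosome (bars), beside 20 times the chromosome's share of measured genes (red lines), with Bst2 at 20 and Usp18 at 11.

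The mean of the 32 standardised residuals gave each mouse 1 value, from -0.713 to 0.959. It was used only as a description, and no p is given for it. It followed the array median with r = 0.442, and centring each array on its median left the median r over pairs at 0.083. The relations of the mean to lists and single genes given below were not recomputed on centred arrays. With the mean of the 60 further interferon-stimulated genes it had r = 0.704 and rho = 0.701 (0.591, 0.781 and 0.761 on plates 1, 2 and 3). Members of that list near the top were Ifitm3 (r = 0.508), which blocks entry of enveloped viruses, Slfn5 (0.504), Gbp2 (0.481) and Trim30a (0.472). Mx1 (0.077), Cxcl10 (0.032) and Oas1a (-0.022), which respond strongly to interferon in many cells, did not follow it.

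Receptor chains (r = 0.45, rho = 0.476) and nucleic acid sensing genes (r = 0.493, rho = 0.461) went with the mean of the 32 genes. Transducers had r = 0.394 and MHC class I genes 0.323. The interferon genes themselves had -0.103 (rho = -0.068), with both signs across plates (-0.209, -0.338 and 0.142). The 10 single genes with the highest r, out of 18778, were Zeb1 (0.576), Meox2 (0.558), Csf1 (0.536), Dpysl2 (0.534), Fli1 (0.533), Rab3il1 (0.532), Chrdl1 (0.526), Il6st (0.524), Cavin3 (0.523) and Igfbp7 (0.52). Zeb1 is a mesenchymal transcription factor, Csf1 the growth factor of macrophages and Fli1 an endothelial and blood cell transcription factor. The 5 lowest were Limk2 (-0.414), Fen1 (-0.402), Lypd6b (-0.401), Psmc1 (-0.398) and Cab39 (-0.39).

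Markers of several cell types moved with these genes. The mean of the 32 had r = 0.499 with macrophage and dendritic cell markers (10 of 10 measured), 0.487 with endothelial markers (7 of 7), 0.469 with dermal fibroblast markers (7 of 7), 0.453 with leukocyte markers (5 of 5) and -0.316 with keratinocyte markers (10 of 10). The sign was the same on every plate for each of these 5 lists. The other lists had r of 0.336 (plasmacytoid dendritic cells), 0.282 (mast cells), 0.281 (adipocytes), 0.275 (skeletal muscle), 0.104 (T lymphocytes), 0.088 (neutrophils), 0.038 (Langerhans cells) and 0.003 (NK and B cells). Within the plasmacytoid dendritic cell list the genes were split. Tcf4 (0.405), Irf8 (0.284) and Cox6a2 (0.272) followed the mean, while Siglech (0.022), Ly6d (0.019) and Ccr9 (-0.085) did not. The part of cell composition in the correlations between the interferon response genes was not tested.

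Single genes of the set were then set against each list (640 relations, permutation tests adjusted over all of them). Irgm1 followed the fibroblast markers most closely, with r = 0.562 and rho = 0.511 (0.532, 0.605 and 0.58 on the plates, 0.53 without 2 mice, permutation adjusted p = 0.000194). Gbp7 had r = 0.435 and Samd9l, an interferon-induced brake on protein synthesis and growth, had 0.425 with that list (same adjusted permutation p). In all, 11 genes (34.4%) had a positive and 1 (Ifi35, r = -0.206, 3.12%) a negative relation to fibroblast markers at an adjusted permutation p under 0.05. The smallest absolute r called in any relation was 0.202, and it was reached with fibroblast markers by 13.3% of all genes in the positive and 15% in the negative direction. Macrophage and dendritic cell markers had 15 positive relations (46.9%) and no negative one, against 13.1% and 13.6% of all genes past the same r. Keratinocyte markers had 11 negative ones, led by Gbp7 (r = -0.417, rho = -0.386, permutation adjusted p = 0.000194), and 1 positive, with Trim25 (r = 0.271, rho = 0.228, permutation adjusted p = 0.0057 and 0.0239). All genes past the same r with these markers were 14.6% in the negative and 14.5% in the positive direction. Whether the 32 genes differ in these shares from all genes was not tested.

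All 11 genes with a positive relation to fibroblast markers also had a called positive relation to endothelial and to macrophage markers, among them Irgm1, Gbp7, Samd9l, Parp14 and Cmpk2. Trim25 had r = 0.002 with fibroblast markers and 0.112 with macrophage markers, and followed the signal transducers instead (r = 0.452, rho = 0.442, permutation adjusted p = 0.000194). Parp14 had the highest r with the 60 further interferon-stimulated genes (r = 0.54, rho = 0.52, permutation adjusted p = 0.000194). Isg15 had -0.14 with that list (adjusted permutation p = 0.202) and -0.235 with leukocyte markers (adjusted permutation p = 0.0166).

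**Figure D5:**
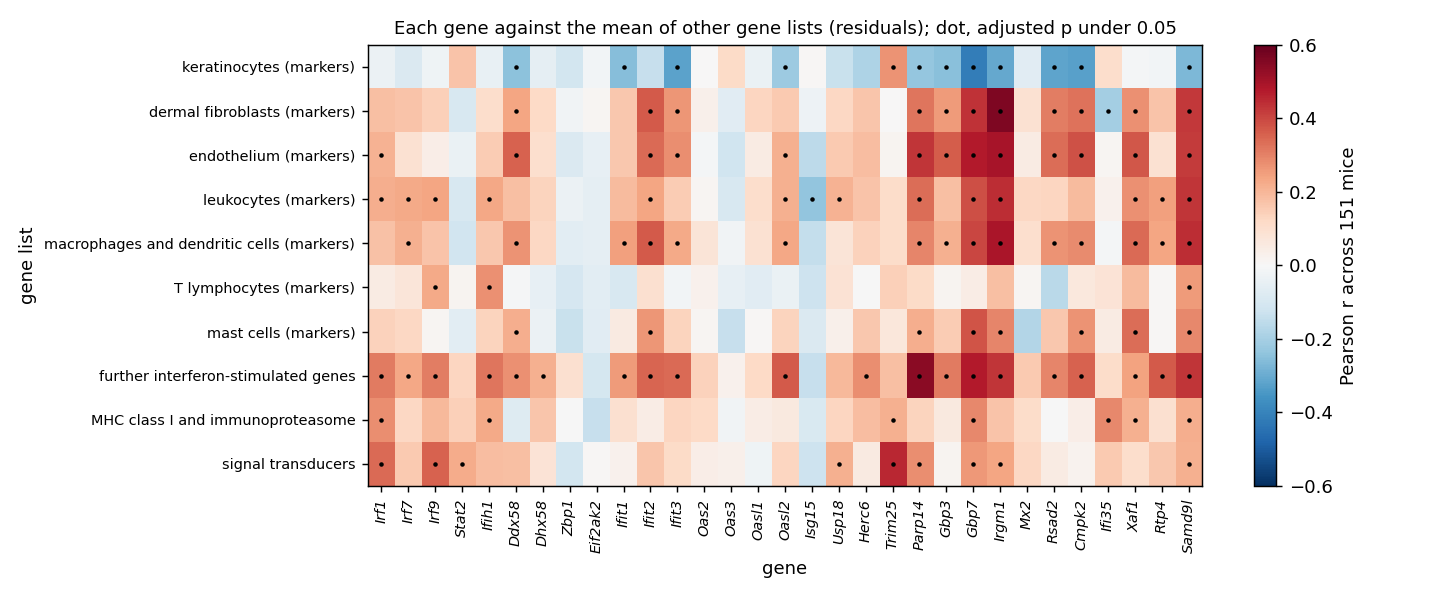
Pearson r across mice (colour) between each interferon response gene (columns, without Bst2) and the mean of 10 other gene lists (rows), on residuals after genotype, sex and plate, with dots at a permutation p under 0.05 adjusted over all 640 relations. Irgm1, Gbp7, Samd9l and Parp14 are red against fibroblast, endothelial and macrophage markers, and 11 genes are blue with a dot against keratinocyte markers.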

How the data were processed

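Expression was measured with Affymetrix arrays in tail skin, 1 array per mouse. The authors' deposited log2 values were made with RMA, per the submitters' processing notes, which name no version. They covered 35385 probe sets, and 171 rows were empty. Of these probe sets 21201 carried a single symbol in the platform annotation, 1881 carried more than 1 and 12303 carried none. Symbols and chromosomes were taken from RefSeq (GRCm38.p6), matching 21168 probe sets by identifier and missing 33. No pair of arrays correlated above 0.986.

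Differences were fitted in R 4.3.3 over the arrays not marked as outliers, with files read by data.table (version 1.17.8), by limma 3.58.1, using lmFit and a trended eBayes, on genotype, sex and plate, and p-values were adjusted over 18810 genes by Benjamini-Hochberg. Correlations, two-sided permutation tests and motif searches ran in Python 3.11.15 with scipy 1.17.1, numpy 2.4.6, pandas 2.3.3 and matplotlib 3.10.9. The fits were tested on simulated arrays. Of 100 genes changed by 0.2, 75 were recovered between genotypes and 87 between sexes. Of 100 changed by 0.4, 98 and 100 were recovered, and 9 and 12 unchanged genes were called. The changed genes were drawn from all 18810, and recovery for the 32 alone was not computed. The 32 genes, the pathway lists and the marker lists were chosen with earlier results of these data known. Named are all 32 genes, list genes called in a contrast, the 8 highest and 4 lowest pairs and pairs of 1 locus, and the 10 highest and 5 lowest genes against the mean of the 32. Genes that follow a member on its own chromosome, and single list genes set against the mean of the 32, were named after their values were seen. Alternatives changed the scaling, the probe set rule, the covariates and the mice or genes used.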

Additional observations from a re-analysis of the deposited data

How the results depend on the processing

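The count of called interferon response genes was 0 of 32 for genotype, for sex and for plate in limma. It was also 0 with each array centred on its median, with quantile normalization, with the mean of all probe sets, with the 2 outlier arrays included and with genes below the median gene left out. The same held for genotype and sex on each plate alone, for genotype in each sex alone and without sex or plate terms, and for sex in WT mice alone. The genotype and sex differences of the genes with the smallest p-values kept their direction and stayed uncalled under the scaling, probe set and outlier alternatives run. The median r over pairs was 0.081 and moved to 0.135 on plate 2 alone, with 0.079 on plate 1 and 0.064 on plate 3, and the cause was not tested. It was 0.098 in HET and 0.085 in WT mice, and 0.097 in males and 0.087 in females. Further alternatives were chosen after seeing the data: it was 0.087 without Isg15, 0.087 without Bst2, 0.095 without both and 0.058 over the 10 pairs of genes at or above the median gene. No paired analysis was possible because each mouse is a separate animal. The labels used here join no HET mouse to a WT mouse and no male to a female. No measure of signal over background was used here, so how far it limits these values is not known.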

Other observations

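On the 2 arrays marked as outliers, none of the 32 interferon response genes lay outside the range of the other mice in deposited values. In these values 10 of the 32 on one array and 8 on the other lay above the median of those mice. The mouse with the highest mean of the 32 genes was a HET female on plate 2. With genotype, sex and plate removed, 26 of its 32 genes lay above their median, and it was among the 15 highest mice for 12 of them. In that mouse the deposited Rsad2 value was 3.23. The mouse with the lowest mean was a WT male on plate 2, with 8 of the 32 above their median with genotype, sex and plate removed. The 5 highest mice for Rsad2 lay at 3.98 or above, and the sixth lay at 3.73.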
